A study of Mus musculus with 3 samples.

Results

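Messenger RNA splicing is carried out by the spliceosome, a machine built on each intron from small nuclear ribonucleoproteins (snRNPs) and many further proteins. Most of the 57 genes described here encode protein parts of that machine or the SR proteins that steer it. Their symbols also take in genes whose proteins act elsewhere, among them Lsm1, Lsm10 and Lsm14b, as described below. The 57 were chosen by symbol rather than by their measured values, though with earlier results of these data known. The rule took every row of the deposited table that began with Snrp, or with Srsf, Sf3a, Sf3b, Lsm or Prpf followed by a digit. Only the imprinted gene Snrpn was left out. The members are 57 of the 14133 genes in the table. By role they are 7 Sm core genes, 4 genes of proteins particular to the U1 or U2 snRNP, 9 SF3 genes, 13 LSm genes, 13 PRPF genes and 11 SR genes.

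The RNA came from female primordial germ cells, the embryonic precursors of oocytes, taken from fetal ovaries of C57BL/6 mice on embryonic days 12.5 (E12.5), 14.5 (E14.5) and 16.5 (E16.5). The cells of all 3 stages carried an Oct4-EGFP reporter, which marks cells that use the Pou5f1 (Oct4) promoter, and were sorted for its fluorescence. No treatment is named in the labels, and the number of embryos per library is not given in the sources used here. Each stage was 1 droplet library (10x Genomics, 3′ ends), so stage and library cannot be told apart, no test between stages was possible and no p-value is given.

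In these libraries a unique molecular identifier (UMI) marks 1 captured RNA molecule. Cells that carried the markers of germ cells numbered 4686 at E12.5, 8906 at E14.5 and 5311 at E16.5, with medians of 26715.5, 11003 and 12634 UMIs per cell. All 32 germ cell markers measured were above 0 at every stage, but so were the measured markers of the other cell types searched. Levels are given in CPM (a gene's UMIs per 1000000 UMIs of the summed cells). At least 10 CPM was reached by 22 of the 32 germ cell markers at E12.5, 27 at E14.5 and 25 at E16.5. The 32 summed to 8513, 9333 and 12513 CPM. The 18 pregranulosa markers measured, which mark the supporting cells of the ovary, summed to between 19.2 and 35.6 CPM over the 3 stages. Of these 18, 1, 1 and 0 reached 10 CPM. The 4 erythroid markers summed to 0.303 CPM at E12.5, 11.9 at E14.5 and 76.7 at E16.5, and their part in the results was not tested. Of the cell barcodes, 58 occurred both at E12.5 and E14.5, 72 at E14.5 and E16.5, 43 at E12.5 and E16.5, and 0 in all 3 libraries. At E12.5, 667 germ-cell-like cells held a UMI of a Y-linked gene, against 0 at the other stages, which goes against the female label. Without those cells the members' medians were -0.07 for E14.5 over E12.5 and -0.32 for E16.5 over E12.5 on the log2 scale, against -0.10 and -0.32 with them.

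Each snRNP holds a small nuclear RNA, a ring of Sm proteins (LSm proteins in U6) and proteins of its own. U1 recognises the start of the intron and U2 the branch point near its end, after which U4, U6 and U5 join and the catalytic centre forms. SR proteins bind exons and recruit U1 and U2 to the neighbouring splice sites, and so take part in the choice among alternative exons. The germ line, the testis above all, is known for extensive alternative splicing.

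The stretches before the start of 4 genes are printed here because these genes carry the main contrasts below. Snrpa1 and Snrpb2 encode partner proteins of the same snRNP and moved in opposite directions, while Srsf3 and Srsf7 encode related SR proteins that fell together. Each is the 250 bases before the RefSeq start (build GRCm38.p6), 5′ to 3′ on the gene's own strand. Capitals mark matches, on either strand, to CCAAT (the NF-Y box), GGGCGG (SP/KLF), CCGGAAG (ETS) or TATAAA (the TATA box).
Snrpa1, chr7:66060086-66060335, plus strand: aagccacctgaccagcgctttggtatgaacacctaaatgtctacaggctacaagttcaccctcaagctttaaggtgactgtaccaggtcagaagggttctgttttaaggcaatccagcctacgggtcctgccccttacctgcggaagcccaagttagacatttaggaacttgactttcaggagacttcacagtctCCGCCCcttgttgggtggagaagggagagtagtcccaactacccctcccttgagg
Snrpb2, chr2:143062819-143063068, plus strand: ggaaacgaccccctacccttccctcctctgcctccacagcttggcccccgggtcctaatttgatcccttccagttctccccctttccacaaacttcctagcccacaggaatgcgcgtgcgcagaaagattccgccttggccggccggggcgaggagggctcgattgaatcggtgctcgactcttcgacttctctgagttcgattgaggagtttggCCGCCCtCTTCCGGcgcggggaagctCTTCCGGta
Srsf3, chr17:29032410-29032659, plus strand: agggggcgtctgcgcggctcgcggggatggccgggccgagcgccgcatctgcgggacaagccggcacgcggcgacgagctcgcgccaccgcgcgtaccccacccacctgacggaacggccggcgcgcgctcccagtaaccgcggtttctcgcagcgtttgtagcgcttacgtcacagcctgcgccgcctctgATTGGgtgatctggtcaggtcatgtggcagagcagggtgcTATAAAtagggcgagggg
Srsf7, chr17:80207306-80207555, minus strand: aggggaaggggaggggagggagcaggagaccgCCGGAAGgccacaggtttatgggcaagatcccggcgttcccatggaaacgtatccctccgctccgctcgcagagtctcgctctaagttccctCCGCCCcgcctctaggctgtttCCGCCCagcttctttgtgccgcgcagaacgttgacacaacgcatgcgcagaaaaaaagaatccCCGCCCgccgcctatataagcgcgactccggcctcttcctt

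The Snrpa1 stretch held 1 GGGCGG match, and the Snrpb2 stretch held 1 GGGCGG and 2 CCGGAAG matches. The Srsf3 stretch held 1 CCAAT match and 1 TATAAA match, while Srsf7 had 3 GGGCGG matches and 1 CCGGAAG match. RefSeq windows of 300 bases (250 before and 50 after the start) were matched for 48 of the 57 members, 58 windows in all. CCGGAAG occurred in 37.9% of these windows and in 8.86% of all 32851 windows, and GGGCGG in 67.2% against 35.7%. TTCCCGCC, an E2F motif, occurred in 8.62% against 2.19%. The other motifs searched were CCAAT (39.7% against 37.4%), CACGTG, the E-box (10.3% against 7.15%), the palindromic NRF1 motif (1.72% against 0.971%), and TATAAA (6.90% against 13.6%). Both strands were searched, matches to different motifs may overlap, and each window was counted once per motif. Windows of the same gene can overlap and were counted separately. The Srsf4 windows starting at 131873387 and 131873389, for example, both held CCGGAAG and TTCCCGCC. Base composition moved with these shares: the median GC content was 60.3% in the members' windows and 52.7% in the others, with medians of 24.5 and 7 CpG. Its part in the motif shares was not tested.

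The summed share of the members in all germ cell UMIs fell with each stage. It was 1.63% at E12.5 (95% exact interval 1.632 to 1.637), 1.47% at E14.5 (1.464 to 1.469) and 1.22% at E16.5 (1.219 to 1.224). All intervals here are 95% intervals that cover counting error only. Cell by cell, the median share was 1.63% at E12.5, with 1.45% at the 5th and 1.82% at the 95th percentile. The median was 1.46% at E14.5 (1.21% to 1.73%) and 1.21% at E16.5 (0.995% to 1.49%). The cells of the stages overlapped in this share while their medians stepped down.

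**Figure D1:**
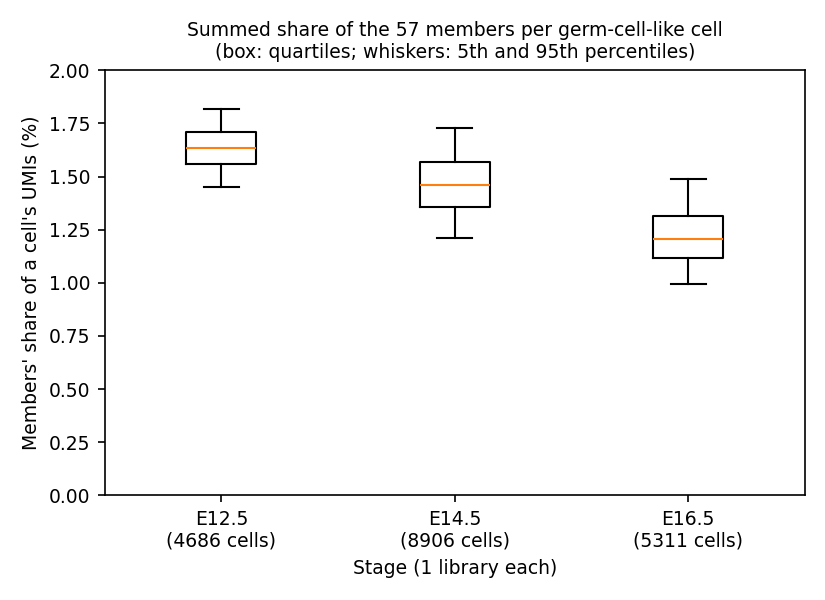
Share of each germ-cell-like cell's UMIs taken by the 57 members, in percent (vertical axis), for the 3 stages (horizontal axis, 1 library each). Boxes are quartiles and whiskers the 5th and 95th percentiles, and the medians step down from 1.63% to 1.46% and 1.21%.

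By role, the fall from E12.5 to E16.5 was unequal. The SF3 genes summed to 1734 CPM at E12.5, 1279 at E14.5 and 1026 at E16.5. The SR genes summed to 2982, 2182 and 2020.2 CPM, most of the drop lying in the first step. The Sm core genes summed to 6649, 6205 and 4726 CPM, most of the drop by CPM lying in the second step. This timing depends on the scaling. By TMM the median log2 ratio of single Sm core genes was -0.47 in the first step and -0.37 in the second. The U1 and U2 proteins went from 966 to 736 and 685 CPM. The LSm genes rose from 3243 to 3499.8 CPM and then went to 2931 CPM. The PRPF genes stayed near their first level at 772, 765 and 823 CPM. Both of these courses depend on the scaling: the median log2 ratio of single LSm genes in the first step was 0.17 by CPM and -0.09 by TMM, and that of PRPF genes over the whole span 0.00 by CPM and -0.36 by TMM.

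Single members mostly moved by less than 2-fold. From E12.5 to E14.5, 1 member was higher by 2-fold or more and 4 were lower by as much, against 31.1% and 16.3% of all 14128 genes tested. From E14.5 to E16.5, 0 members were at least 2-fold higher and 2 lower, against 16.3% and 17.4% of all genes. From E12.5 to E16.5, 2 were higher and 7 lower, against 36.9% and 22.7%. All 57 members passed the minimum of 10 UMIs over the stages, and 0 were at 0 in any stage. Limited to the genes that reached 10 CPM in either stage, those shares were 22.7% higher and 15.3% lower in the first step. They were 11.1% and 11.3% in the second step, and 32.0% and 21.9% over the whole span. Thus 48 of 57 members stayed within 2-fold over the whole span.

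The members' median log2 ratio was -0.10 for E14.5 over E12.5, -0.11 for E16.5 over E14.5 and -0.32 for E16.5 over E12.5. The median of all genes was 0.30, 0.06 and 0.38, so the members lay 0.40, 0.16 and 0.71 below the median gene. In the same order, 47, 39 and 48 of 57 members were below the median gene. CPM is relative to all UMIs of a stage. Under TMM scaling, which centres the bulk of genes, the all-gene median of the whole span went from 0.38 to 0.02, and 30.3% of all genes were higher and 28.5% lower by 2-fold or more. The members' split then became 1 higher and 17 lower, with a median of -0.69. For the first step it became 1 higher and 7 lower (all genes 26.2% and 21.1%), and for the second it stayed at 0 and 2. The sign of 9 members over the whole span was not kept under TMM: Sf3b1, Lsm8, Lsm3, Prpf31, Lsm14a, Sf3a1, Srsf5, Lsm2 and Prpf19 were higher by CPM and lower by TMM.

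**Figure D2:**
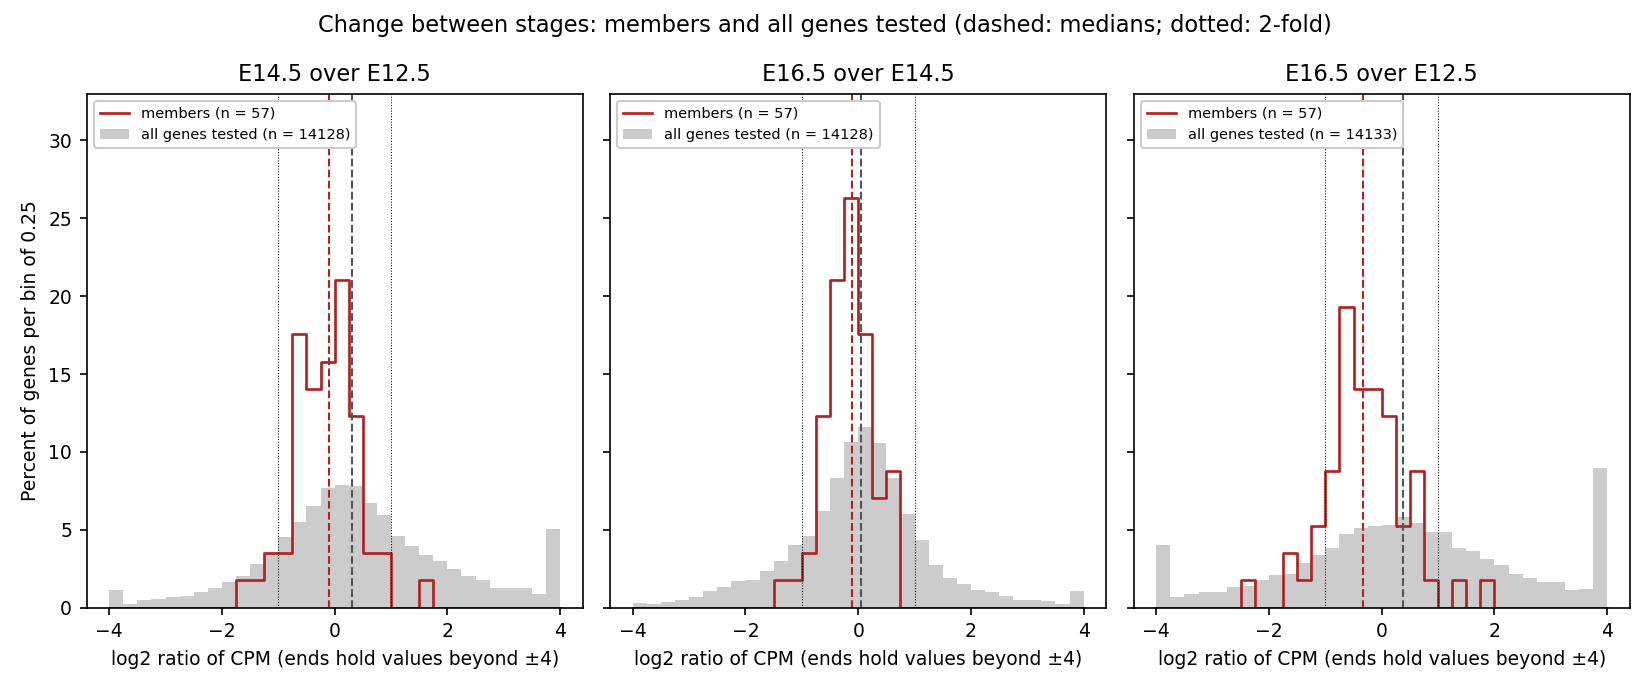
Histograms of the log2 ratio of CPM (horizontal axis) for the 57 members (red line) and all genes tested (grey), as percent of genes per bin of 0.25 (vertical axis), for the 3 pairs of stages. Dashed lines are medians and dotted lines 2-fold. The members form a narrow peak below the median gene, at -0.32 against 0.38 for E16.5 over E12.5.

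By the direction of both steps, 24 members were lower after each step by CPM, 14 were higher and then lower, 9 lower and then higher, and 10 higher after each step. These counts depend on the scaling: in the first step 33 members were below 0 by CPM and 45 by TMM, and over the whole span 39 and 48. The highest level was at E12.5 for 32 members, at E14.5 for 14 and at E16.5 for 11.

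The proteasome and the mitochondrial ribosome, other large machines of general use, served as a comparison. The 39 proteasome genes had medians of -0.47, -0.24 and -0.63 in the same order, with 1 higher and 11 lower over the whole span. The 76 mitochondrial ribosome genes had medians of -0.08, -0.12 and -0.21, with 3 higher and 10 lower. Of all genes, 36.9% were higher and 22.7% lower by 2-fold or more over the whole span. The members' median of -0.32 lay between those lists, and nothing here sets the spliceosome apart from them.

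**Figure D3:**
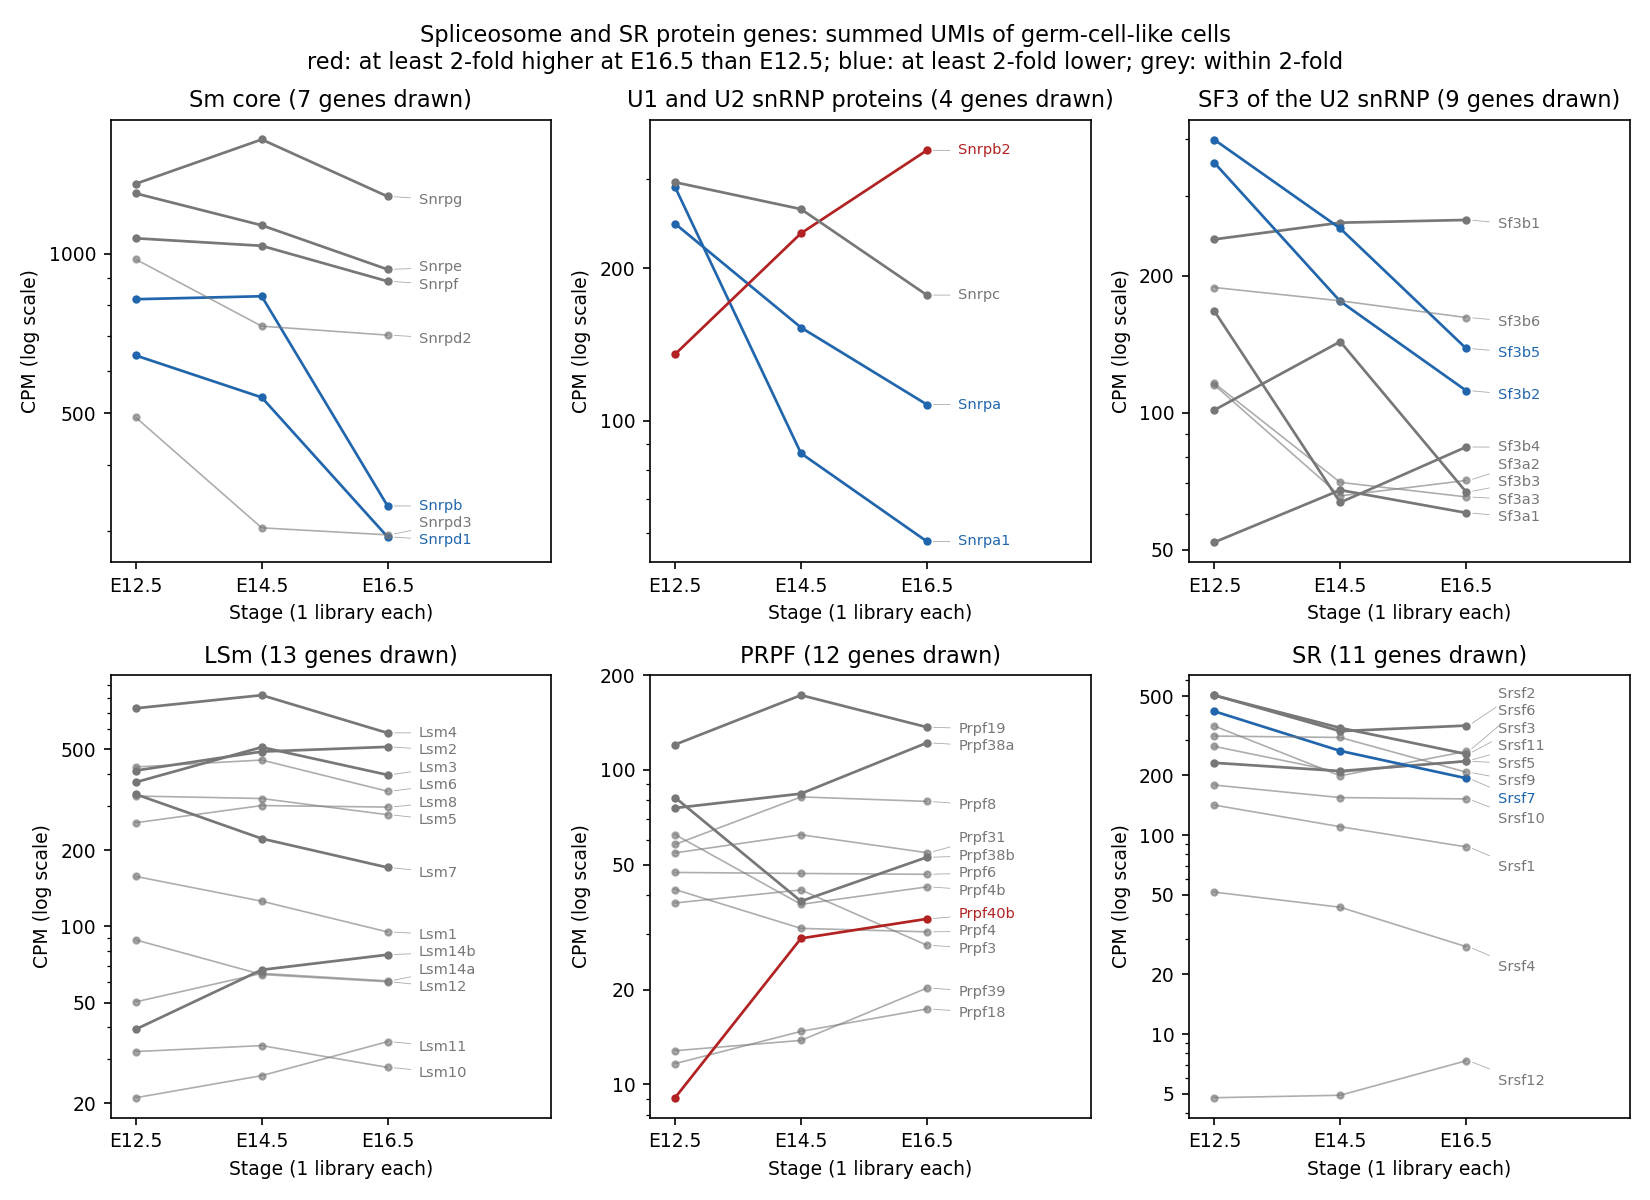
Levels of 56 members in CPM (vertical axis, log scale) at the 3 stages (horizontal axis, 1 library each), in 6 panels by role. Red lines rose by 2-fold or more from E12.5 to E16.5 (Snrpb2, Prpf40b) and blue lines fell by as much (7 members), while grey lines were within 2-fold. Darker lines are the genes named by the rule.

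The Sm proteins form a ring of 7 around the small nuclear RNA of U1, U2, U4 and U5. All 7 Sm core genes were lower at E16.5 than at E12.5, with a median log2 ratio of -0.47, and 2 of them at least 2-fold. Snrpb, which encodes the SmB and SmB' proteins, had 820.4 CPM at E12.5, 831 at E14.5 and 335 at E16.5. Over the first step it was level by CPM and -0.25 on the log2 scale by TMM. By CPM it was 2.48-fold lower over the second, a ratio of 0.403 (0.397 to 0.409), the largest second-step fall of the members. Snrpd1, for SmD1, had 643, 536 and 293 CPM and ended 2.20-fold below its start. The ring's other genes fell less. Snrpg (SmG) had 1353, 1639 and 1281 CPM and was highest at E14.5. Snrpe (SmE) went from 1297 to 1130.1 and 933 CPM, and Snrpf (SmF) from 1068 to 1034 and 887 CPM. Snrpd2 and Snrpd3 ended 1.39-fold and 1.66-fold lower. Each ring holds 1 copy of each protein, and the UMI ratio of Snrpb to Snrpg went from 0.606 at E12.5 to 0.507 and 0.262. The ratio of Snrpd1 to Snrpd2, whose proteins form a pair in the ring, was 0.659, 0.734 and 0.417. Such a ratio depends on how well each transcript is captured, so only its course over the stages is read. Snrpe and Snrpc have near-identical 3′ ends in other annotated genes (at least 98% over 98 bases), so their counts are uncertain.

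Snrpn, left out of the members because it is imprinted, encodes SmN, a close relative of SmB. The UMI ratio of Snrpb to Snrpn was 4.64 at E12.5, 11.3 at E14.5 and 11.6 at E16.5.

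The proteins particular to U1 and U2 held the widest contrast. Snrpa1 encodes the A′ and Snrpb2 the B″ protein of U2, which bind the U2 RNA as a pair. Snrpa1 had 289.5 CPM at E12.5 (287 to 293), 86.3 at E14.5 (84.6 to 88.2) and 57.8 at E16.5 (56.1 to 59.7). Snrpb2 had 135 (133 to 138), 235 (232 to 238) and 342 (338 to 347). One partner fell in both steps while the other rose in both. Snrpa1 ended 5.01-fold lower, the largest fall of the 57, and Snrpb2 ended 2.53-fold higher. Their UMI ratio went from 2.14 (2.10 to 2.18) to 0.368 (0.359 to 0.377) and 0.169 (0.163 to 0.175), which no scaling of the libraries can change. Under TMM the Snrpb2 rise over the whole span was 0.98 on the log2 scale, just under 2-fold, and the Snrpa1 change was -2.68. In cells thinned to 5000 UMIs, Snrpa1 was found in 74.7% of cells at E12.5, 33.7% at E14.5 and 25% at E16.5, and Snrpb2 in 48.4%, 69.6% and 82.4%. The coding gene Gm45213 overlaps Snrpa1 on the same strand and is not in the table.

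Snrpa encodes the A protein and Snrpc the C protein of the U1 snRNP. Snrpa had 245 CPM at E12.5, 153 at E14.5 and 108 at E16.5, a 2.27-fold fall. It overlaps the coding gene BC024978, also in the table, on the opposite strand. Snrpc had 296, 262 and 177 CPM and ended 1.67-fold lower. Snrpa and Snrpb2 encode related RNA-binding proteins, and their UMI ratio went from 1.81 to 0.652 and 0.315. So of the 4 genes only Snrpb2 was higher at E16.5 than at E12.5, by CPM and by TMM.

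**Figure D4:**
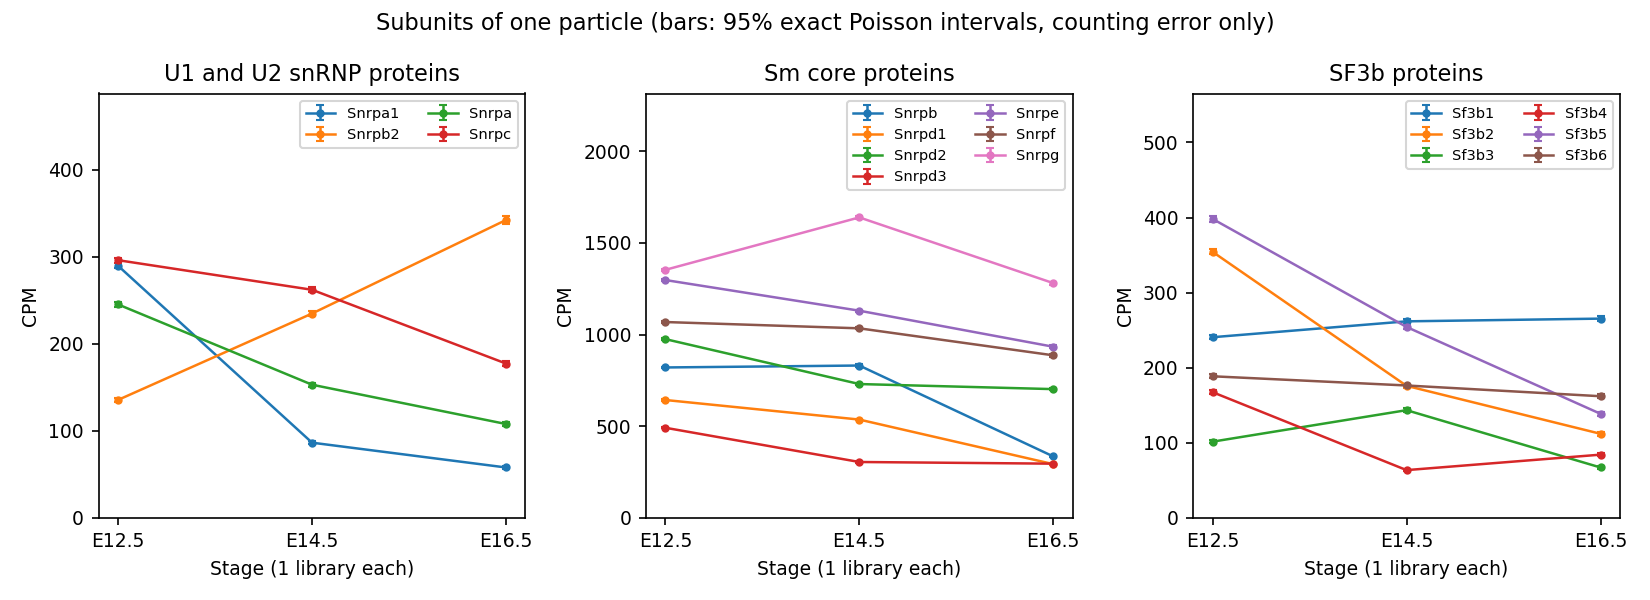
CPM (vertical axes, from 0) of the U1 and U2 proteins, the Sm core and SF3b at the 3 stages (horizontal axes, 1 library each), with exact 95% Poisson intervals. Snrpa1 and Snrpb2 cross between E12.5 and E14.5, Snrpb drops between E14.5 and E16.5, and Sf3b1 stays level while Sf3b2 and Sf3b5 fall.

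SF3a and SF3b are the parts of the U2 snRNP that hold it on the branch point. Of the 9 genes 7 were lower at E16.5 than at E12.5 by CPM, 2 of them at least 2-fold (5 by TMM: Sf3b2, Sf3b5, Sf3b4, Sf3a3 and Sf3a2), and the median log2 ratio was -0.70. Sf3b2 had 354 CPM at E12.5, 176 at E14.5 and 112 at E16.5, a 3.17-fold fall. Sf3b5, a small subunit, had 398, 254 and 139 CPM, a 2.87-fold fall. Both fell in each step. The first-step log2 ratio of Sf3b2 was -1.01, and -0.98 without the cells that held a Y-linked UMI, which brought the members at least 2-fold lower in that step from 4 to 3. Sf3b4, an RNA-binding subunit, had 167, 63.6 and 84.2 CPM. Its first-step fall was 2.63-fold, followed by a partial return. Sf3b3, a large propeller-shaped subunit, went the other way, with 101, 143 and 67.1 CPM, and its second-step fall was 2.14-fold. Sf3b3 overlaps the coding gene Cog4 on the opposite strand, and whether counting used strand is not given in the sources used here.

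Sf3b1 encodes the largest SF3b subunit, which clamps the branch point. It had 241, 262 and 265 CPM, within 1.10-fold over the whole span by CPM and -0.22 on the log2 scale by TMM. The UMI ratio of Sf3b2 to Sf3b1 therefore went from 1.47 to 0.672 and 0.422, and that of Sf3b5 to Sf3b1 from 1.66 to 0.971 and 0.522. Sf3a1, of SF3a, had 52, 67.7 and 60.3 CPM. Sf3b6, whose protein touches the branch point adenosine, ended 1.16-fold lower, Sf3a2 1.62-fold and Sf3a3 1.78-fold lower.

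The proteins LSm2 to LSm8 form the ring of the U6 RNA in the nucleus, and with LSm1 in place of LSm8 the ring acts in messenger RNA decay in the cytoplasm. Of the 13 LSm genes, 0 moved 2-fold in any comparison by CPM, and 6 were higher and 7 lower at E16.5 than at E12.5. By TMM 2 were at least 2-fold lower over the whole span (Lsm7 at -1.32 and Lsm1 at -1.09 on the log2 scale), and Lsm2, Lsm3, Lsm8 and Lsm14a were lower rather than higher. Lsm4 had 728 CPM at E12.5, 819.7 at E14.5 and 581 at E16.5. Lsm2 had 413, 491 and 512 CPM. Lsm3 had 371, 511 and 397 CPM. These 3 genes were above their E12.5 level at E14.5, and Lsm4 alone of them was below it at E16.5, both by CPM. By TMM, Lsm2 and Lsm4 were below it at E14.5 and all 3 at E16.5. Lsm7 stood apart from its ring partners with 333, 222 and 171 CPM, a 1.95-fold fall. Lsm7 has a near-identical 3′ end in the table's Gm10146, so its counts are uncertain, and the same holds for Lsm3, Lsm5 and Lsm6 with genes that are not in the table.

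The genes that distinguish the rings moved apart. Lsm1 had 157, 126 and 95 CPM, and Lsm8 had 257, 300.2 and 296 CPM. Their UMI ratio went from 0.613 to 0.419 and 0.321. Both genes were named after their values were seen, for their part in the rings. Lsm14b, whose protein belongs to cytoplasmic messenger RNA particles, had 39.2, 67.3 and 77.2 CPM. It ended 1.97-fold higher, and without the cells that held a Y-linked UMI its log2 ratio of 0.98 became 1.00, which brought the members at least 2-fold higher from 2 to 3.

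The PRPF genes encode varied splicing factors named after yeast mutants. By CPM 7 of the 13 were higher and 6 lower at E16.5 than at E12.5, with 1 of them at least 2-fold higher and 0 lower. Prpf40b, a U1-associated protein, had 9.06 CPM at E12.5 (8.54 to 9.60), 29.1 at E14.5 (28.1 to 30.2) and 33.6 at E16.5 (32.2 to 35.0). The rise was 3.21-fold in the first step and 3.71-fold over the whole span, the largest of the 57, and 1.53 on the log2 scale by TMM. Prpf40b overlaps the coding gene Fam186b on the opposite strand, which is not in the table.

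Prpf38a and Prpf38b moved apart. Prpf38a, which acts in the activation of the spliceosome, had 75.7, 84.0 and 122 CPM, a 1.61-fold rise. Prpf38b had 81.7, 38.2 and 52.7 CPM, with a first-step fall of 2.14-fold. Prpf19, a ubiquitin ligase at the centre of its own complex in the spliceosome, had 120.4, 173 and 137 CPM and was highest at E14.5. Prpf8, the scaffold of the catalytic centre in U5, had 57.9, 82.0 and 79.4 CPM. Prpf6, a bridge within the joint U4, U6 and U5 particle, had 47.2, 46.8 and 46.5 CPM and hardly moved by CPM. Prpf8 and Prpf6 were named after their values were seen.

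SR proteins carry an RNA-binding domain and a tail rich in arginine and serine. Of the 11 SR genes 10 were lower at E14.5 than at E12.5 by CPM, 6 of them fell again by E16.5, and 4 then rose. By TMM all 11 were lower at E14.5. Over the whole span 9 were lower and 2 higher by CPM, with a median log2 ratio of -0.51. Srsf3 had 503 CPM at E12.5, 346 at E14.5 and 256 at E16.5, a 1.97-fold fall. Srsf7, its near relative, had 419, 265 and 193 CPM, a 2.17-fold fall, and was the one SR gene past 2-fold by CPM. By TMM 4 were past it: Srsf7, Srsf3, Srsf4 and Srsf1. Srsf2 had 505, 333 and 355 CPM, and its fall lay in the first step. Srsf5 had 231, 209.8 and 235 CPM and returned to its E12.5 level by CPM, while by TMM its log2 ratio was -0.34. Srsf12, a member of low level named after its values were seen, had 4.79, 4.92 and 7.34 CPM, and its first-step ratio of 1.03 had an interval that held 1 (0.912 to 1.16).

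Other genes of the pathway were drawn from 9 lists, 188 tested genes in all. Over the whole span 40 of the 188 were higher and 31 lower by 2-fold or more, against 36.9% and 22.7% of all genes, with a median log2 ratio of -0.04. The balance depends on the scaling. By TMM 25 were higher and 56 lower, against 30.3% and 28.5% of all genes, with a median of -0.40. The counts by list that follow are by CPM, with the TMM counts beside them. The SMN and PRMT5 complexes load the Sm ring onto the RNA. Of their 17 genes 4 were higher and 3 lower (2 and 5 by TMM), with a median of -0.38. Prmt5, which methylates Sm proteins, had 89.8 CPM at E12.5, 36.9 at E14.5 and 27.8 at E16.5, a 3.23-fold fall. Gemin7 had 36.1, 65.8 and 130.1 CPM, a 3.60-fold rise. Of 24 other snRNP proteins 5 were higher and 2 lower (3 and 5 by TMM), from Txnl4b at 3.70-fold higher to Snrnp25 at 2.71-fold lower.

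The proteins that recognise the branch point and the 3′ splice site had 0 higher and 3 lower of 12 (0 and 4 by TMM). U2af1, the small subunit of U2AF, had 669.6, 308 and 196 CPM, a 3.41-fold fall, and Cherp was highest in ratio at 1.54. Among 13 spliceosome helicases 1 was higher (Ddx42, 2.43-fold) and 2 lower (Dhx38 the lowest, 2.58-fold), with a median of -0.81. By TMM 0 helicases were higher and 7 lower. The activation and catalytic complexes had 7 higher and 5 lower of 28 (3 and 8 by TMM). Rbmx2 had 51.2, 325 and 389 CPM, a 7.60-fold rise, and Ppil1 had 212, 104 and 50.4 CPM, a 4.21-fold fall. The exon junction complex had 4 higher and 2 lower of 20 (2 and 6 by TMM), from Smg1 at 3.20-fold higher to Magoh at 2.08-fold lower.

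Of 21 SR kinases, phosphatases and SR-related genes 2 were higher (Rsrc1, 2.14-fold, the highest) and 1 lower (Thrap3, 2.02-fold), and by TMM 0 and 3. Of 26 hnRNP genes, whose proteins often act against SR proteins at exons, 2 were higher and 11 lower (2 and 14 by TMM), with a median of -0.69. Hnrnpa1 had 904 CPM at E12.5, 231 at E14.5 and 88.3 at E16.5, a 10.2-fold fall, although this gene has many near-identical copies in the genome and its counts are uncertain. Pcbp2 had 245, 591 and 891 CPM, a 3.63-fold rise. The tissue splicing regulators had 15 higher and 2 lower of 27 and a median of 1.33. By TMM they had 13 higher and 4 lower and a median of 0.97, the one list of the 9 with more genes higher than lower on that scale. Celf2 had 2.44, 55.5 and 96.2 CPM, a 39.4-fold rise, and Esrp1 had 37.5, 14.7 and 17.9 CPM, a 2.10-fold fall.

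Within each stage, cells were ordered by 3 scores that hold none of the members: pluripotency genes, G2 and mitosis genes, and meiosis genes. Cells were thinned to 5000 UMIs each, and the tertile of cells with the highest score was set against the tertile with the lowest. Members' shares moved little. At E12.5 the ratio of the highest to the lowest tertile was 1.02 by pluripotency, 0.998 by G2 and mitosis and 0.992 by meiosis score. At E14.5 it was 1.04, 1.07 and 0.969, and at E16.5 1.05, 1.02 and 1.04. The highest ratio, by G2 and mitosis at E14.5, stood for a share of 1.52% against 1.43%.

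At E12.5, 0 members differed 2-fold between tertiles of any score. There 1 member had an interval above 1 by meiosis score and 7 below, against 6.14% and 4.97% of genes. The meiosis score was near 0 in this library: 860 cells had the score at the upper edge of the lowest tertile and 656 that at the lower edge of the highest, and such ties were split at random, so these tertiles of 1562 cells are coarse and little can be read from them. At E14.5 (2965 cells a tertile), 23 members had an interval above 1 by meiosis score and 26 below, against 32.5% and 43.1% of genes. At E16.5 (1762 cells a tertile), 23 were above and 20 below, against 18.3% and 43.1%. Cells are not replicates, so these intervals describe these libraries. At E14.5 depth moved with the score: the tertiles with the lowest and highest meiosis score had median depths of 13052 and 9283 UMIs before thinning, and at E16.5 13028.5 and 12285.

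By G2 and mitosis score at E14.5, 31 members had an interval above 1 and 5 below, against 14.7% and 16.1% of genes, most of them of lower level. The median log2 ratio of the highest to the lowest tertile was 0.10 for members and -0.02 for all genes. The members' differences were small, and 0 of them reached 2-fold. Snrpa1 had 72.7 CPM in the tertile of lowest and 98.5 in that of highest score, and Snrpd1 had 486 and 611 CPM, ratios of 1.36 and 1.26. At E12.5 the counts were 11 above and 16 below (12.6% and 11.5% of genes), and the members' median log2 ratio was 0. Snrpb2, at 116 and 155 CPM, and Srsf7, at 371 and 463 CPM, rose with the score, though more members were below than above. At E16.5 the counts were 12 above and 2 below (9.86% and 4.20% of genes).

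By pluripotency score, 11 members were above and 4 below at E12.5 (9.23% and 14.0% of genes), 27 above and 22 below at E14.5 (43.2% and 31.7%), and 23 above and 6 below at E16.5 (14.1% and 9.55%). Here too the shares of all genes are an unlike background. At E16.5 this score too was near 0, with 1645 and 1115 cells tied at the edges of tertiles of 1762 cells, so the tertiles are coarse. There Snrpb was highest in ratio, with 285 and 411 CPM in the tertiles of lowest and highest score, a ratio of 1.44 (1.37 to 1.52). Sf3b3 had 58.9 and 81.9 CPM. Both genes had fallen by more than 2-fold from E14.5 to E16.5. At E14.5 the pluripotency and meiosis scores gave opposite courses: Prpf40b had 46.3 and 16.3 CPM by pluripotency and Lsm10 had 15.9 and 46.3. Depth moved with the pluripotency score too. The tertiles of lowest and highest score at E14.5 had median depths of 9294 and 12895 UMIs before thinning, and the part of depth was not tested.

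The members named in these paragraphs for their course within a stage were chosen after their values were seen. At E14.5 Prpf40b had 16.9 CPM in the tertile of lowest and 46.8 in that of highest meiosis score, and at E16.5 16.2 and 54.4 CPM. The ratios were 2.76 (2.39 to 3.21) and 3.35 (2.77 to 4.07), the same direction as its course over the stages. Between tertiles of depth its ratio of highest to lowest was 0.571 at E14.5 and 0.987 at E16.5. Prpf19 had 117 and 234 CPM at E14.5 and 108 and 172 at E16.5. Srsf9, an SR protein, had 238 and 393 CPM at E14.5 and 153 and 247 at E16.5. Snrpb2 had 209.8 and 284 CPM at E14.5, and 334 and 359 at E16.5.

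Other members were lower in cells of high meiosis score. Lsm10, whose protein sits in the U7 snRNP that processes histone messages, had 47.5 and 15.4 CPM at E14.5 and 41.7 and 13.6 at E16.5. Those contrasts lay between cells of the same library. Over the stages Lsm10 had 32.0, 33.8 and 27.7 CPM, a whole-span log2 ratio of -0.21 by CPM and -0.57 by TMM. Between tertiles of depth its ratio of highest to lowest was 1.89 at E14.5 and 0.922 at E16.5. Srsf12 had 8.23 and 2.43 CPM at E14.5, and 9.53 and 4.77 at E16.5. Lsm7 had 263 and 158 CPM at E14.5, and 208 and 131 at E16.5. Snrpa1 had 102 and 68.9 CPM at E14.5 and 58.6 and 59.3 at E16.5, and Snrpb had 938 and 661 at E14.5 and 316 and 337 at E16.5, so neither kept its E14.5 contrast at E16.5. Prpf31, of the joint U4, U6 and U5 particle, had opposite directions: 44.3 and 80.4 CPM at E14.5, 62.1 and 42.0 at E16.5.

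**Figure D5:**
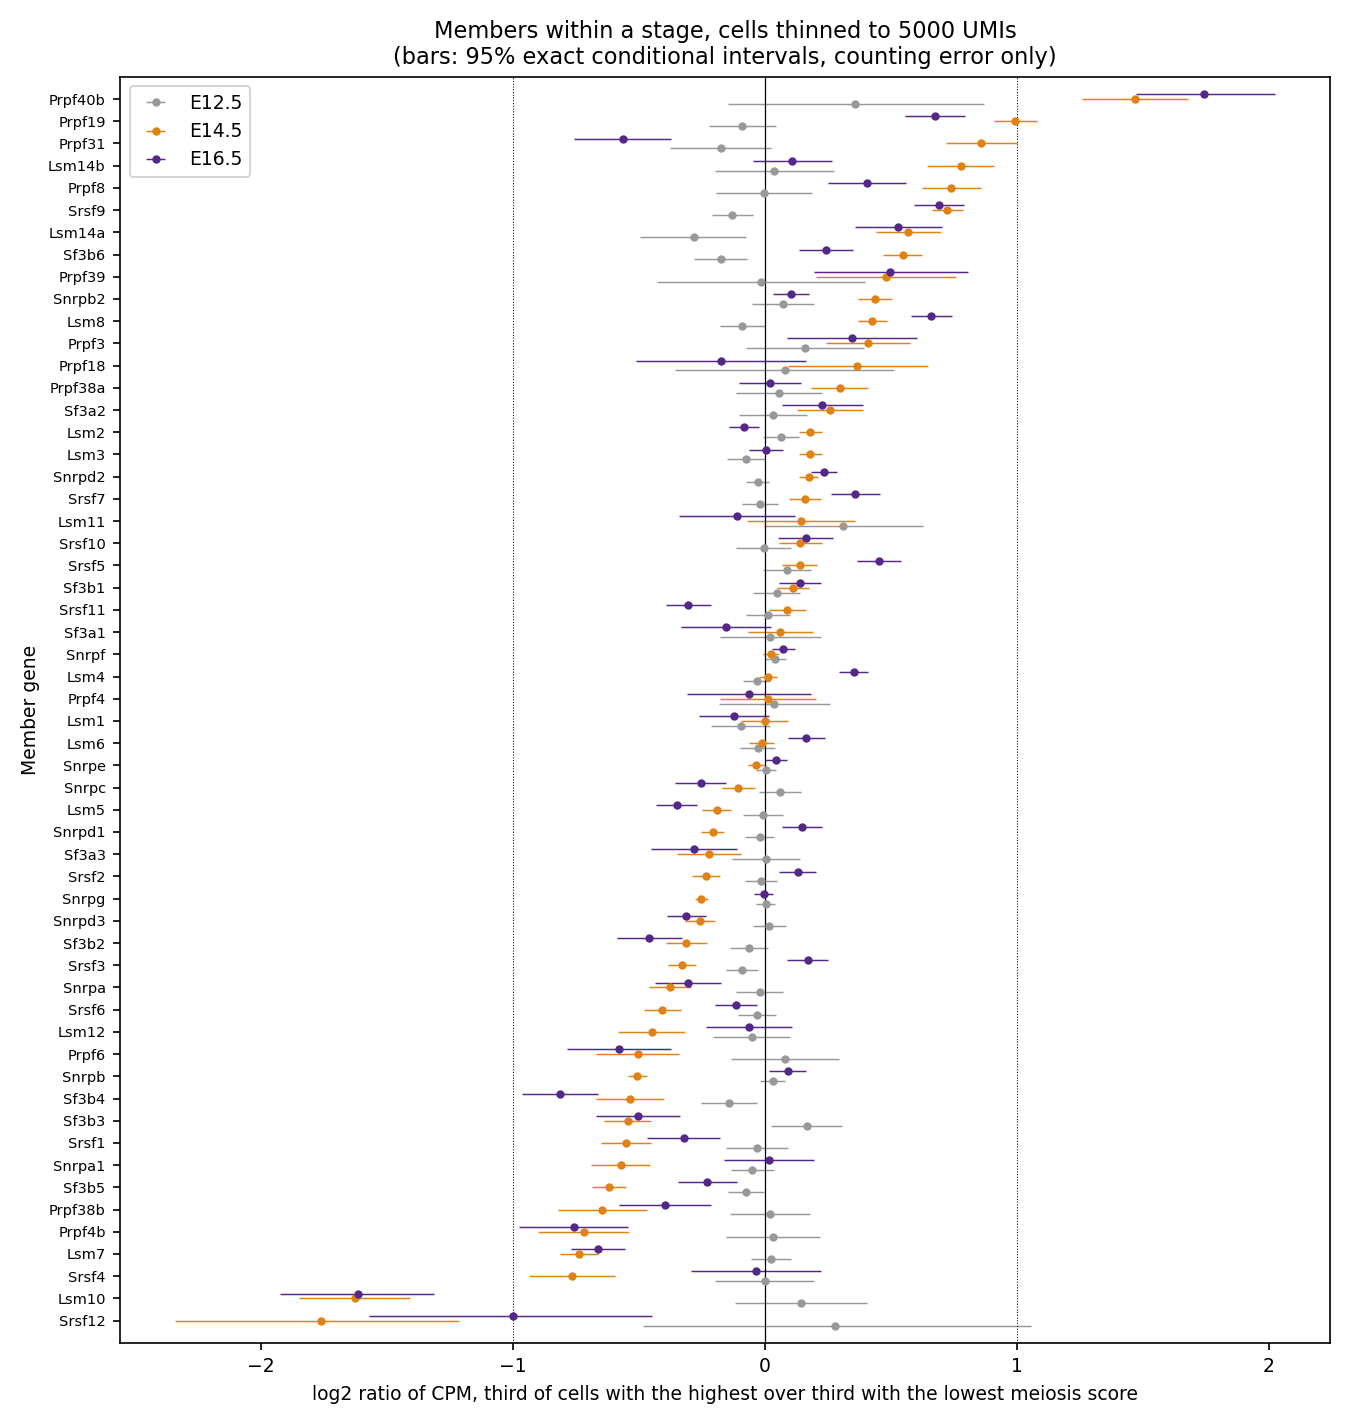
Log2 ratio of CPM between the tertiles of cells with the highest and lowest meiosis score (horizontal axis) for 56 members (vertical axis), by stage, in cells thinned to 5000 UMIs, with exact 95% conditional intervals for counting error. E12.5 points, from coarse tertiles, lie near 0, while Prpf40b lies at the upper and Lsm10 and Srsf12 at the lower end at E14.5 and E16.5.

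The spread between cells of the same stage was described by the ratio of variance to mean, which is 1 for pure counting and is drawn towards 1 for genes of few UMIs. In cells thinned to 5000 UMIs, the median over the members was 1.04 at E12.5, 1.05 at E14.5 and 1.06 at E16.5. All genes between the lowest and the highest member mean had 1.02, 1.03 and 1.03. They were not matched to the members by level within that range, so the difference may reflect level. The highest member was Srsf3 at E12.5 (1.18) and Snrpb at E14.5 (1.21) and E16.5 (1.36). For the summed UMIs of all members the ratio was 1.17, 1.38 and 1.5. Prpf40b had 1.10 at both E14.5 and E16.5 although its level differed between tertiles there, so a value near 1 does not show that a gene was even among cells.

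The E14.5 library also held 165 pregranulosa-like cells, with a median of 8489 UMIs. The members took 0.947% of their UMIs, against 1.47% in germ-cell-like cells of the same library. At least 2-fold, 0 members were higher and 9 lower in the pregranulosa-like cells, against 30.8% and 17.7% of 13979 genes. The median log2 ratio of the members was -0.41 and that of all genes 0.16. The 9 were Sf3b3, Prpf3 and 7 genes of the U6 ring, Lsm2 to Lsm8. Lsm2 had 169 CPM against 491 in germ-cell-like cells, 2.90-fold lower, and Lsm4 had 302 against 819.7, 2.71-fold lower. Sf3b3 had 45.8 against 143 CPM, 3.13-fold lower. Of the 57 members, 7 had an interval above 1 and 34 below, against 32.4% and 25.5% of genes. Intervals are narrower for genes of more UMIs. Sf3b4 had 119 CPM against 63.6 and was among the 7. These cells were sorted with the germ cells and their counts can hold germ cell RNA, the part of which was not tested.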

How the data were processed

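RNA of 3 libraries was captured with the 10x Chromium controller and the V2 kit for 3' ends, per the labels' protocols. Cell Ranger 2.0.0, FastQC and build mm10 were used, per the submitters' processing notes. Of filters and strand use in counting, the sources used here give no account. In the table the authors deposited are natural log values, ln(1 + UMIs x 10000 / total of the cell), for 14133 genes in 19144 cells. Undoing the natural log gave whole UMIs for 100.0% of 68606039 non-zero values (tolerance 0.01), and all values below come from these recovered counts. Members and lists were chosen with earlier results of these data known.

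Scrublet in scanpy 1.11.5 marked 34 cells (0.18%), which were left out. That is far under the expected 6%, so doublets may remain. Clustering over all cells (2000 variable genes, 30 components, 15 neighbours, Leiden at 0.5) gave 10 clusters, 9 germ-cell-like and 1 pregranulosa-like. A name needed at least 3 detected markers, a rule set after the clusters were seen. UMIs of germ-cell-like cells were summed per stage (125382461, 102574491 and 68959896) and divided by their total to give CPM. Its intervals are exact Poisson ones, and ratios have exact conditional intervals. A count of 0 was replaced by a floor of 3 counts, and genes needed 10 counts over the 3 sums. Ratio scripts were tested on simulated data. In each role, the named members were the 3 of highest level, those of highest and lowest E16.5/E12.5 ratio, and those past 2-fold (minimum 10 CPM), and in each list those of highest and lowest ratio. Members outside this rule were named after their values were seen. A member that the rule names is not reported here. Positions and overlaps came from GENCODE M21 (GRCm38, the same build as mm10). Python 3.11.15, numpy 2.4.6, scipy 1.17.1 and pandas 2.3.3 were used. The alternatives are listed in the closing section.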

Additional observations from a re-analysis of the deposited data

How the results depend on the processing

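No paired analysis was possible because each stage had 1 library, and for the same reason no replicate could be left out. The members' median log2 ratio stayed below 0 in all settings run. For E14.5 over E12.5 it was -0.36 under TMM scaling, -0.42 under median-of-ratios scaling and -0.0451 without mitochondrial and ribosomal protein genes. For E16.5 over E14.5 it was -0.20 under TMM and -0.024 as a difference of mean natural log values. For E16.5 over E12.5 it was -0.69 under TMM, -0.70 under median-of-ratios, -0.27 without mitochondrial and ribosomal protein genes, -0.37 among genes of at least 10 CPM and -0.18 as a difference of natural logs. Members at least 2-fold lower numbered 7 under TMM and 10 under median-of-ratios for the first step. For the whole span they numbered 17 and 18, where 1 was higher under either. Of all genes, 21.1% were lower by as much under TMM and 22.3% under median-of-ratios in the first step. Over the whole span those shares were 28.5% and 28.8%, with 30.3% and 30.1% higher. At 1.5-fold in place of 2-fold, 3 were higher and 13 lower for the first step, 6 lower for the second, and 7 higher and 20 lower for the whole span. The share of all genes past 1.5-fold is not given here, so these counts cannot be read against it. Without mitochondrial and ribosomal protein genes the members' share became 2.48%, 2.30% and 1.92% in stage order, and it fell in both steps in every setting run. The share moved by more than its counting interval, to 1.63% at E12.5 without cells holding a Y-linked UMI or in thinned cells, and to 1.46% at E14.5 with every cell, as a mean over cells of CPM or in thinned cells. Between score groups, quartiles in place of tertiles gave ratios of 1.04 (E14.5 pluripotency), 1.08 (E14.5 G2 and mitosis) and 1.06 (E16.5 pluripotency). Full depth gave 0.986 (E12.5 G2 and mitosis), 1.08 (E14.5 G2 and mitosis), 1.06 (E16.5 pluripotency) and 1.03 (E16.5 G2 and mitosis). Where the scaling does not set the difference, the cause was not tested. Depth limits members of few UMIs, such as Srsf12.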
